A study of Mus musculus with 9 samples.

Results

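The FGF-ERK genes described here are 8 of the 24132 gene symbols in the deposited RPKM table: the ligand Fgf4, the receptors Fgfr1 and Fgfr2, the feedback inhibitors Spry2, Spry4 and Dusp6, and the transcription factors Etv4 and Etv5. They were chosen by symbol, for their place in the pathway and with earlier results of these data known, and were followed across all 9 libraries of a RIPiT-seq experiment in mouse embryonic stem cells (ESCs), in which RNA crosslinked to tagged WDR5 was purified in tandem and sequenced. WDR5 is a subunit of the MLL histone methyltransferase complexes, and the study asked which RNAs it binds through the pocket that the F266A mutation disrupts, a phenylalanine changed to alanine. All libraries came from ESCs of the strain 129/B6 F1 hybrid, grown without feeders and with LIF, that had been infected with a lentivirus. The virus carried no tagged WDR5 in the empty vector line (EV), FLAG-HA tagged wild type WDR5 in the WT line, and FLAG-HA tagged WDR5 F266A in the F266A line. Both tagged cDNAs were human, and the mutant one was also shortened at its N terminus, so the tagged lines differ by more than the point mutation. Both tagged lines were clones selected for tagged protein near the endogenous level, and the endogenous Wdr5 gene was left in place in every line. Each line contributed 1 input library and 2 immunoprecipitation libraries (IPs) that went through the FLAG and then the HA purification. With 1 line per construct, an effect of the construct and a difference between clones cannot be told apart. The labels do not say whether the IPs of a line came from separate cultures, so the p-values below measure the spread between libraries, which may be technical.

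FGF4 is secreted by ESCs and acts on the cells that make it. It binds FGF receptors with heparan sulfate, and the receptors recruit adaptors that load RAS with GTP and start the RAF, MEK and ERK kinase cascade. Active ERK induces Sprouty and DUSP genes, whose products dampen the same cascade, and the ETS family genes Etv4 and Etv5, so that transcripts of these feedback genes are widely used as a readout of the pathway. In the early embryo and in ESC cultures, FGF-ERK signalling favours primitive endoderm over naive epiblast identity, and blocking it holds ESCs in the naive state.

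Most of these genes were well expressed. RPKM divides reads by transcript length and by mapped reads, so levels can be set side by side between genes: over the 9 libraries the mean RPKM was 14.0 for Etv5, 12.0 for Fgf4, 9.66 for Spry2, 9.50 for Spry4, 6.62 for Etv4, 4.88 for Fgfr1, 1.55 for Dusp6 and 0.805 for Fgfr2. The ranges over libraries of Etv5 (9.83 to 18.1) and Fgf4 (9.0 to 14.2) overlapped, as did those of Spry2 (7.51 to 13.9), Spry4 (6.55 to 13.7) and Etv4 (3.92 to 11.9) with one another. Dusp6 (1.12 to 2.13) lay wholly below Fgfr1 (3.32 to 8.01) and overlapped with Fgfr2 (0.474 to 1.47). Genes that reached an RPKM of 1 in 2 or more libraries were tested, 9787 in all, and the 8 were among them, but Fgfr2 passed only through WT IP 1 and F266A IP 1. From the estimated depth and the exon length, Dusp6 rested on 50 to 196 reads per library and Fgfr2 on 76 to 263, against 775 to 2331 for Etv5, so the values of Dusp6 and Fgfr2 carry the largest counting error among the 8.

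Some properties of the libraries bear on these genes. Estimated depth ran from 13300000 mapped reads in EV IP 2 to 50700000 in the EV input, and the share of reads on genes was 20.1% to 22.6% in inputs and 27.2% to 29.5% in IPs. Wdr5, counted with no separation of tagged and endogenous transcript, ranged from 5.85 to 12.92 RPKM. F266A IP 1 stood apart from the other libraries of its line, and its label gives no reason for this. The summed RPKM of the Y-linked genes Ddx3y, Uty, Eif2s3y and Kdm5d was 0.0383 there, 4.43 in the F266A input and 7.21 in F266A IP 2. That sum was 7.42 to 9.50 in EV and 0.182 to 0.324 in WT. Of ESC markers, all 10 were detected and their sum was 422 to 693, lowest in the F266A input, with Pou5f1 at 36.3 to 81.1 RPKM. The sum of 14 primitive endoderm markers was 18.5 to 25.8 in the EV and WT libraries, 55.4 in the F266A input, 69.5 in F266A IP 2 and 19.6 in F266A IP 1. Sparc and Lama1 made up most of these sums. Over the remaining 12 markers the sum was 1.01 to 2.49 in EV and WT, 4.81 in F266A IP 1, 21.4 in the F266A input and 29.3 in F266A IP 2. In 8 of the 14 every F266A library lay above every other library, although Foxa2 and Hnf4a were listed at 0 in F266A IP 1. The regulators Gata4 and Gata6 were at 1.90 and 0.777 RPKM in the F266A input, 2.69 and 0.936 in F266A IP 2, 0.695 and 0.0615 in F266A IP 1, and at most 0.171 and 0.0466 elsewhere. Summed markers ranged from 12.1 to 27.8 for primed epiblast, 3.14 to 9.12 for trophoblast and 0.695 to 2.03 for fibroblasts. In such bulk libraries fewer cells of a type and less RNA per cell cannot be told apart, and differences between lines of the 8 genes are given without F266A IP 1 where that library is part of the comparison and the gene was called or changed its call.

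**Figure D1:**
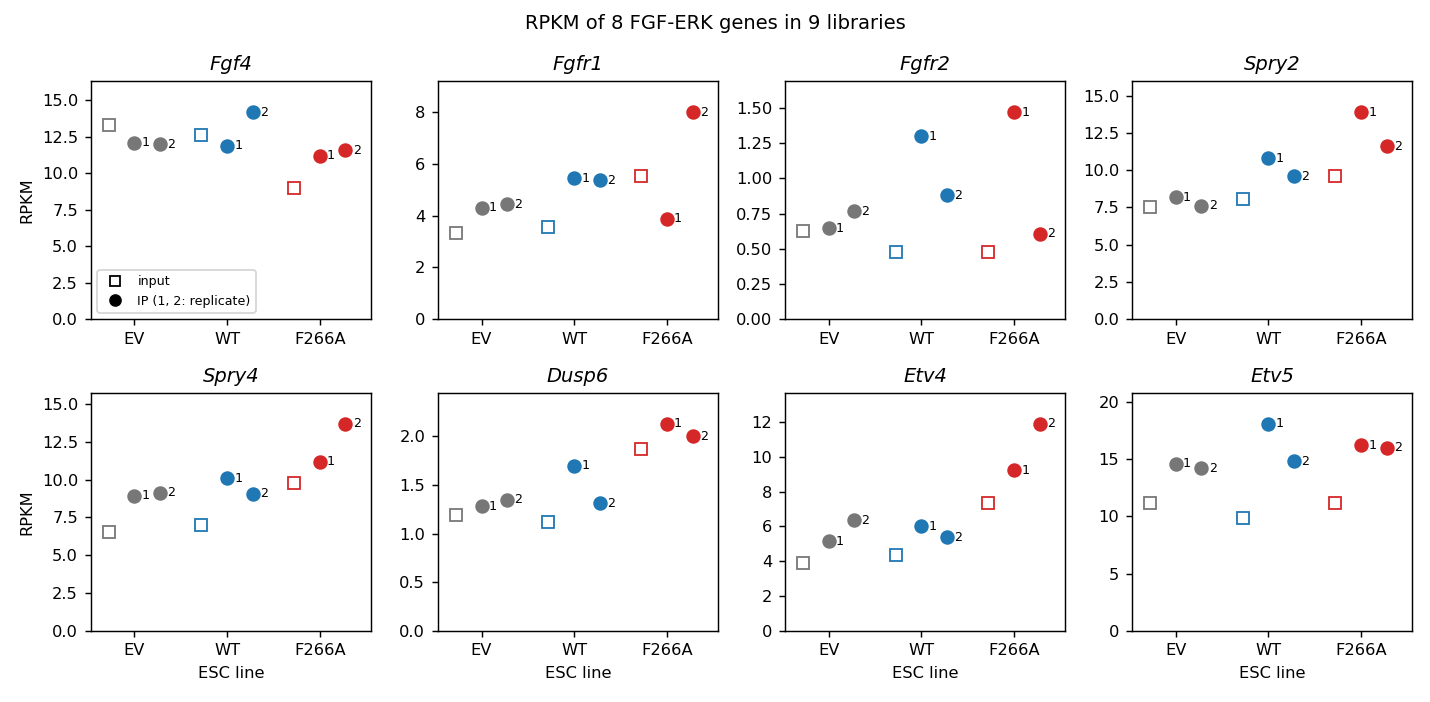
RPKM of the 8 FGF-ERK genes (vertical axis, from 0) in each library of the EV, WT and F266A lines; open squares are inputs and filled circles are IPs, numbered by replicate. The F266A libraries are the highest for Dusp6 and Etv4, at 1.87 to 2.13 and 7.33 to 11.9 RPKM, and the lowest for Fgf4, at 9.0 to 11.6 RPKM.

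Etv4 and the 3 feedback inhibitors were higher in the F266A line than in the EV line. Fitted over the input and both IPs of each line, Etv4, Spry2, Spry4 and Dusp6 rose by 0.40 to 0.77 on the log2 (RPKM + 1) scale, whereas Etv5, Fgf4 and both receptors did not pass the test. The 4 of 8 genes called higher compare with 5.45% of all 9787 genes called higher, and none of the 8 was called lower, against 11.3% of all genes. As the 8 were chosen with results of these libraries known, these counts describe them and give no independent evidence of a direction. The median difference of the 8 was 0.40, and that of all genes was -0.04. Without F266A IP 1, 5 of the 8 were called higher and none lower, against 8.76% and 17.1% of all genes. ESC and primitive endoderm markers differed between the same lines. Of the ESC markers 5 of 10 were called lower in F266A and none was higher, with a median difference of -0.46 and Pou5f1 at -0.71 (limma adjusted p = 0.00626). Of the 14 primitive endoderm markers 7 passed the filter on low RPKM, 5 of them only through F266A libraries (Gata4, Dab2, Cubn, Col4a1 and Col4a2), so their calls are not counted here. The other 2, Lama1 and Sparc, passed in every line and differed by 0.39 and 0.30 (adjusted p = 0.264 and 0.529). Without F266A IP 1, 6 of the 10 ESC markers were lower, and Lama1 (0.73) and Sparc (0.76) were higher (adjusted p = 0.000720 and 0.000568). Their part in the differences of the FGF-ERK genes was not tested.

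Etv4 encodes an ETS family transcription factor (PEA3) that ERK induces. It lies at chr11:101631056-101646685 (minus strand, mm9). It was measured at 3.92 RPKM in the EV input, 5.15 in EV IP 1 and 6.35 in EV IP 2. In the same order it was at 4.38, 6.01 and 5.38 in WT and at 7.33, 9.24 and 11.9 in F266A. Every F266A library exceeded every EV and WT library, and within each line the input was the lowest. The F266A line was above EV by 0.77 ± 0.11 (SE, n = 3 libraries per line; limma, Benjamini-Hochberg adjusted p = 0.00161), and by 0.85 ± 0.11 without F266A IP 1 (adjusted p = 0.000907). Etv4 was called in all 9 refits that left out 1 library, and with IPs alone (0.77, adjusted p = 0.0374).

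Spry2, a Sprouty protein that restrains signalling from receptor tyrosine kinases to ERK, lies at chr14:106291166-106296036 (minus strand, mm9). It measured 7.51, 8.19 and 7.62 RPKM in the EV input and IPs, 8.05, 10.8 and 9.60 in WT, and 9.64, 13.9 and 11.6 in F266A. All F266A values were above all EV values, whereas WT IP 1 exceeded the F266A input. The difference from EV was 0.52 ± 0.10 (SE; limma adjusted p = 0.00726), it was 0.44 ± 0.09 without F266A IP 1 (adjusted p = 0.00979), and it was called with any 1 library left out and with IPs alone (0.62, adjusted p = 0.0414).

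Spry4, a second Sprouty gene and a feedback inhibitor of the same cascade, lies at chr18:38745922-38760922 (minus strand, mm9). Its RPKM was 6.55, 8.94 and 9.13 in EV, 6.99, 10.1 and 9.08 in WT, and 9.77, 11.2 and 13.7 in F266A. All F266A values were above all EV values, and WT IP 1 was the only WT library to exceed the F266A input. Spry4 rose in F266A by 0.45 ± 0.09 relative to EV (SE; limma adjusted p = 0.00900) and by 0.53 ± 0.08 without F266A IP 1 (adjusted p = 0.00190). The call was lost by a small margin without the EV input (adjusted p = 0.0536) or the F266A input (0.0535), and with IPs alone (0.42, adjusted p = 0.119).

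Dusp6 encodes the cytoplasmic phosphatase that inactivates ERK, and lies at chr10:98725865-98730122 (plus strand, mm9). Its RPKM was 1.19, 1.28 and 1.35 in EV, 1.12, 1.70 and 1.31 in WT, and 1.87, 2.13 and 2.0 in F266A. The 3 F266A libraries were the 3 highest. The difference of 0.40 ± 0.09 from EV (SE; limma adjusted p = 0.0143) was 0.39 ± 0.10 without F266A IP 1 (adjusted p = 0.0204). It missed the threshold without EV IP 1 (adjusted p = 0.0649), EV IP 2 (0.0519) or the F266A input (0.0702), and with IPs alone (0.41, adjusted p = 0.114).

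Etv5, the close relative of Etv4 and the highest of the 8 by mean RPKM over all libraries, did not follow it between lines. The gene lies at chr16:22381382-22439792 (minus strand, mm9). It measured 11.2, 14.6 and 14.2 RPKM in EV, 9.83, 18.1 and 14.8 in WT, and 11.2, 16.2 and 16.0 in F266A, so the lines overlapped throughout. The F266A minus EV difference was 0.10 with a 95% interval of -0.13 to 0.33 (limma adjusted p = 0.532), and it was 0.10 without F266A IP 1 as well (adjusted p = 0.555).

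The ligand went the other way without passing the test. Fgf4, at chr7:152047291-152051148 (plus strand, mm9), encodes the main FGF that ESCs make for themselves. It had 13.3, 12.1 and 12.0 RPKM in EV, 12.6, 11.9 and 14.2 in WT, and 9.0, 11.2 and 11.6 in F266A. All F266A values were below all values of the other lines. The difference from EV was -0.22, with a 95% interval of -0.46 to 0.02 (limma adjusted p = 0.191), and it was -0.25 without F266A IP 1 (adjusted p = 0.154). It shrank to -0.10 without the F266A input, -0.12 without the EV input and -0.07 with IPs alone.

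Of the receptors, Fgfr1 (chr8:26624126-26686186, plus strand, mm9) is the main FGF receptor of ESCs. Its RPKM was 3.32, 4.30 and 4.44 in EV, 3.57, 5.45 and 5.38 in WT, and 5.54, 3.88 and 8.01 in F266A. F266A IP 1 fell among the EV values, while F266A IP 2 and the F266A input were the highest of the 9 libraries. The difference from EV was 0.40 ± 0.19 (SE; limma adjusted p = 0.171), and without F266A IP 1 it was 0.69 ± 0.08 (adjusted p = 0.000585), so this 1 library decided the call. The difference was 0.21 without F266A IP 2 and 0.28 without the F266A input, and it was called in neither fit. The gene model shares 125 exon bases with the antisense lincRNA Gm16159 and 761 with a second model of the same name, and reads there could not be assigned.

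Fgfr2 (chr7:137306026-137410322, minus strand, mm9), which marks the primitive endoderm lineage in the embryo, had 0.623, 0.647 and 0.767 RPKM in EV, 0.476, 1.30 and 0.881 in WT, and 0.474, 1.47 and 0.605 in F266A. The highest value was that of F266A IP 1 and the lowest that of the F266A input. The F266A minus EV difference was 0.10 ± 0.17 (SE; limma adjusted p = 0.722) and turned to -0.09 without F266A IP 1 (adjusted p = 0.700). The pattern over the F266A libraries was thus opposite for the receptors: in the library that lacked Y-linked RNA, Fgfr1 was at its lowest and Fgfr2 at its highest within the line.

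**Figure D2:**
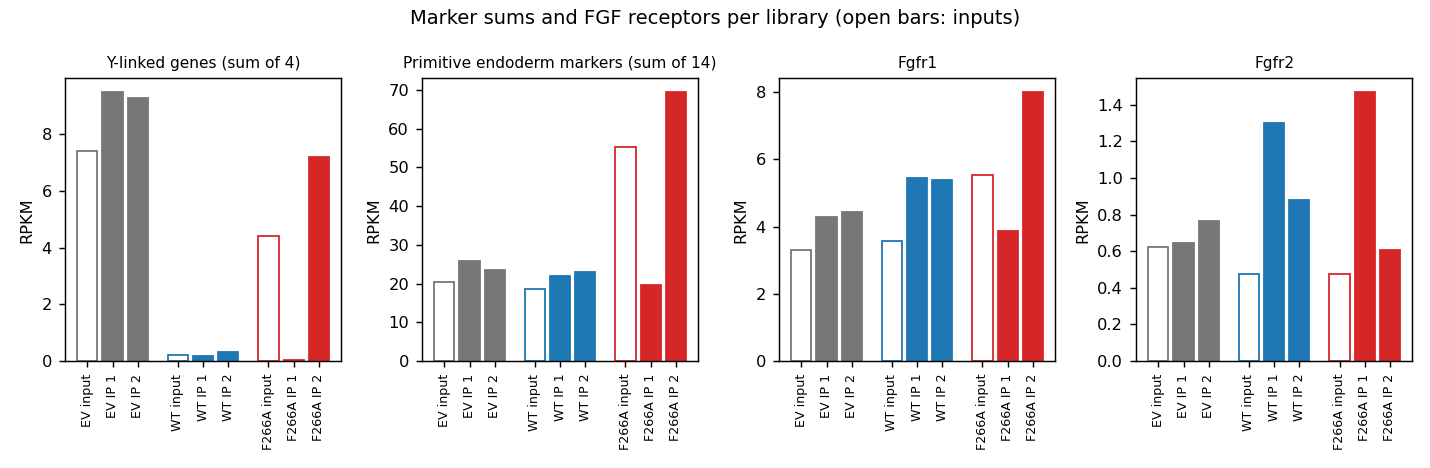
RPKM per library (bars, axis from 0) of the summed Y-linked genes, the summed primitive endoderm markers, Fgfr1 and Fgfr2; open bars are inputs and filled bars are IPs. F266A IP 1 has 0.0383 for the Y-linked sum and 19.6 for the endoderm sum, the lowest Fgfr1 of its line at 3.88 and the highest Fgfr2 of all libraries at 1.47.

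The primitive endoderm sum and the 4 called genes can be set side by side in that library. In F266A IP 1 the sum of 14 markers, mostly Sparc and Lama1, was 19.6 and thus within the range of the EV and WT libraries, and the sum of the other 12, at 4.81, was above their highest of 2.49. There Etv4 (9.24), Spry2 (13.9), Spry4 (11.2) and Dusp6 (2.13) were above all 6 EV and WT libraries. The part of the endoderm markers in the differences was not tested.

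The promoters of the feedback genes are shown because Etv4 and Etv5 belong to the ETS family, whose members bind a GGAA core, and because Dusp6 and Spry2 rose in the line in which Etv4 rose. The RefSeq promoter table (GRCm38.p6) held 5 of the 8 genes, namely Fgf4, Fgfr2, Spry2, Dusp6 and Etv5, the last with 2 entries. It held no entry for Fgfr1, Spry4 and Etv4. The 250 bases before the start of Dusp6 (chr10:99262981-99263230, plus strand) and of Spry2 (chr14:105896820-105897069, minus strand) read as follows from 5′ to 3′, with each GGAA, or TTCC where the core is on the other strand, in capitals.
Dusp6: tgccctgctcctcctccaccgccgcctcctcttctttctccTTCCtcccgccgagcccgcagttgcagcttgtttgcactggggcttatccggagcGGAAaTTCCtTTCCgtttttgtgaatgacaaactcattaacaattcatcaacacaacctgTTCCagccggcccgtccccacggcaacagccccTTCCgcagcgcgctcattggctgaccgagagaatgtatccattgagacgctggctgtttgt
Spry2: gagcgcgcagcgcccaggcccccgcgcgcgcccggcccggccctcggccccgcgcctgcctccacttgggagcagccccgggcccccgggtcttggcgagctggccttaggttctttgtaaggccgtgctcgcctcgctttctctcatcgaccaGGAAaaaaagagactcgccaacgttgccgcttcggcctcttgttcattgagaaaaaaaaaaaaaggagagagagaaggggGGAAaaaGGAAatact
The Dusp6 window holds 6 such cores and the Spry2 window 3, against a median of 3 over the 32851 promoters of the table, of which 93.4% hold at least 1. The window of Fgfr2 holds 2, that of Fgf4 holds 0, and those of Etv5 hold 0 and 4. The longer motif AGGAAG, which contains the core, was found on either strand once in Dusp6, beginning 210 bases before the start, once in Fgfr2, and in 29.5% of all promoters. The repressor CIC, which ERK inactivates, binds octamers of the forms TGAATGAA, TGAATGGA, TCAATGAA and TCAATGGA. Searched on both strands, TCAATGAA was found once in the Spry2 window and TCAATGGA once in the Dusp6 window, each on the opposite strand as ttcattga and tccattga, and any of the 4 forms was in 3.19% of all promoters. The windows of Fgf4, Fgfr2 and Etv5 held none of the 4. The motifs TGACGTCA (the cAMP response element) and TGACTCA (bound by AP-1), also searched on both strands, were in none of the windows of these 5 genes and in 1.55% and 4.46% of all promoters. These matches describe letters in a window and not binding.

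The WT and F266A lines, which both express tagged WDR5, differed for 3 of the same genes. The WT minus F266A log2 difference was -0.73 ± 0.11 for Etv4 (limma adjusted p = 0.00361), -0.37 ± 0.09 for Spry4 (adjusted p = 0.0314) and -0.34 ± 0.09 for Dusp6 (adjusted p = 0.0407). Without F266A IP 1 these were -0.81 (adjusted p = 0.00187), -0.45 (0.00604) and -0.33 (0.0476). Of all genes 2.72% were called lower in WT (5.8% without F266A IP 1), and 7.25% were called higher, which none of the 8 was. Spry2 differed by -0.27 (95% interval -0.50 to -0.05, adjusted p = 0.118) and Fgf4 by 0.26 (0.02 to 0.50, adjusted p = 0.160). The Fgf4 difference was 0.14 without the F266A input and 0.17 with IPs alone. Fgfr1 differed by -0.20 (adjusted p = 0.555), and by -0.49 (adjusted p = 0.00429) without F266A IP 1. Its difference was -0.0092 without F266A IP 2, -0.0775 without the F266A input and -0.048 with IPs alone. With quantile normalization and upper quartile scaling Spry2 was called as well (-0.34 and -0.35, adjusted p = 0.0488 and 0.0386), and with no filter on low RPKM the calls of Spry4 and Dusp6 were lost (adjusted p = 0.0547 and 0.0921). The Etv4 call held in all 9 refits that left out 1 library. Those of Spry4 and Dusp6 each held in 2 of 9, with adjusted p up to 0.143 and 0.213 and losses also when an EV library was left out, and with IPs alone none of the 8 was called (Etv4, -0.78, adjusted p = 0.0621). This comparison shares the F266A libraries with the one against EV and is not independent of it.

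Between WT and EV, 0 of the 8 genes were called. Of all 9787 genes limma called 17, or 0.174%, while 829 had an unadjusted p under 0.05. Spry2 had the lowest adjusted p of the 8, at a difference of 0.25 (95% interval 0.02 to 0.48, limma adjusted p = 0.562). For the other 7 the estimates lay between 0.04 and 0.20, and the upper ends of their intervals reached from 0.26 for Dusp6 to 0.62 for Fgfr1, so differences of that size could not be told from none.

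**Figure D3:**
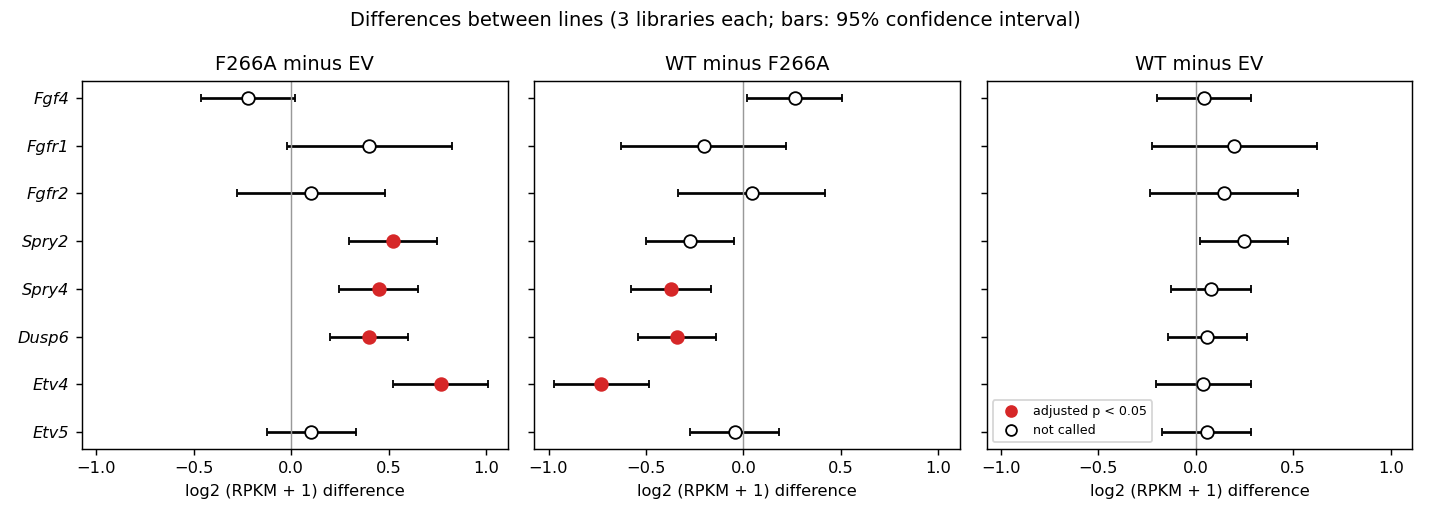
Difference between lines on the log2 (RPKM + 1) scale (horizontal axis) for each of the 8 genes, with 95% confidence intervals from limma over 3 libraries per line; red points have an adjusted p under 0.05. Etv4 differs most, at 0.77 for F266A minus EV and -0.73 for WT minus F266A, and no gene is called for WT minus EV.

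Other genes of the pathway, taken from lists of 72 further genes of which 44 were tested, differed in both directions between F266A and EV: 7 of the 44 were called higher and 5 lower, beside 5.45% and 11.3% of all genes, and their median difference was 0.00. Of the 44 genes 4 (Dusp4, Elk3, Phlda1 and Fgfrl1) had fewer than 2 EV or WT libraries at an RPKM of 1, so they passed the filter only with the help of F266A libraries, and the first 3 were among the 7 called higher. Over the other 40 genes 4 were called higher and 5 lower, with a median of -0.01. Genes with fewer than 2 F266A libraries at an RPKM of 1, such as Fgf15 and Ets2 among those called lower, were kept. The 2 directions were thus not treated alike, and nothing is drawn from the balance of these counts. The feedback inhibitors, the 3 described above included, had 6 of 11 tested genes higher and 1 lower, with a median of 0.29. They had 5 higher and 1 lower without F266A IP 1, beside 8.76% and 17.1% of all genes. Leaving Dusp4 aside, 5 of 10 were higher and 1 lower, and 4 and 1 without F266A IP 1. Dusp9, a further ERK phosphatase, rose by 0.82 ± 0.11 (SE; limma adjusted p = 0.00131), from 7.99 to 11.4 RPKM in EV to 14.1 to 18.4 in F266A. Spred2 was also higher, by 0.27 (adjusted p = 0.0499), and Il17rd, an inhibitor that acts at the receptor, differed by -0.39 (adjusted p = 0.0158). Dusp4 had an estimate of 0.48 but reached at most 1.01 RPKM in EV and WT. As it passed the filter only with the help of F266A libraries, nothing is drawn from its call. These last 3 were named after their values were seen. Without F266A IP 1 the Spred2 call was lost (0.24, adjusted p = 0.0713), while Dusp9 (0.81) and Il17rd (-0.44) were called as well. The Dusp4 estimate was then 0.67.

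Of the transcription factors and target genes 3 of 12 were called higher and 2 lower, against the same 5.45% and 11.3% of all genes, and 3 higher and 3 lower without F266A IP 1 (8.76% and 17.1% of all genes). Leaving Elk3 and Phlda1 aside, 1 of 10 was higher, Etv4, and 2 were lower, Ets2 and Egr1. Ets2, named after its values were seen, was at 0.673, 1.18 and 0.796 RPKM in the F266A input and IPs. It passed the filter only with the help of EV and WT libraries, so nothing is drawn from its call. Next to Etv4, the ETS factor Elk3 and the ERK-induced gene Phlda1 had higher estimates in F266A (0.58 ± 0.10 and 0.73 ± 0.14). EV and WT libraries reached an RPKM of at most 1.09 and 1.11 for them. Both passed the filter only with the help of F266A libraries, so nothing is drawn from their calls. Egr1, an immediate early gene that responds to ERK within minutes, was lower in F266A (-0.59 ± 0.08, limma adjusted p = 0.00171). Its RPKM was 4.91, 6.23 and 5.61 in EV, 8.06, 9.20 and 9.40 in WT, and 2.97, 3.25 and 3.95 in F266A, with no overlap between the 3 lines. Egr1 was also the 1 pathway gene called between WT and EV, higher in WT by 0.59 (adjusted p = 0.0323). That call was lost without the EV input, either EV IP or the WT input, and with IPs alone, where no gene was called higher in WT. F266A, the line with the highest Etv4, had the lowest Egr1.

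In the kinase cascade upstream of these genes 1 of 9 tested genes was called lower and none higher, against 11.3% and 5.45% of all genes. It was Mapk3, which encodes ERK1, at -0.58 ± 0.08 (limma adjusted p = 0.00178), from 11.4 to 15.3 RPKM in EV to 7.42 to 9.41 in F266A. Without F266A IP 1 the called genes were 4 of 9, with Mapk3, Braf and Map2k2 lower and Rps6ka1 higher. Among adaptors and RAS genes 2 of 13 were higher, the docking protein gene Gab1 (0.51, adjusted p = 0.0316) and Sos2 (0.33, adjusted p = 0.0329), both named after their values were seen. Egr1, Mapk3, Gab1 and Sos2 were called in the same directions without F266A IP 1. In that fit 7 of the 44 pathway genes outside the 8 were called higher and 11 lower, against 8.76% and 17.1% of all genes, and 4 and 11 of the 40 left after the 4 genes that passed only with F266A libraries. Genes that passed only with the help of EV and WT libraries were again kept, so nothing is drawn from this balance either.

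The other tested ligands, Fgf15, Fgf17 and Fgf18, had lower estimates in F266A than in EV. Of 22 FGF genes 4 were tested, and 1 of them, Fgf15, was called lower in F266A than in EV (-0.75 ± 0.14, limma adjusted p = 0.00686), against 11.3% of all genes. Fgf15 was at 0.22, 0.958 and 0.313 RPKM in the F266A input and IPs. It thus passed the filter only through EV and WT libraries, so nothing is drawn from its call. Fgf17 had 4.01, 6.46 and 7.50 RPKM in EV, 3.31, 7.08 and 6.13 in WT, and 1.57, 6.88 and 2.85 in F266A, where IP 1 was level with the other lines and the other libraries were not. Its difference was -0.68 (adjusted p = 0.0589), and -1.0 without F266A IP 1 (adjusted p = 0.000325). Fgf18, at 0.170, 2.60 and 0.225 RPKM in the F266A input, IP 1 and IP 2 and 0.432 to 1.68 elsewhere, changed from -0.38 (adjusted p = 0.475) to -0.86 (adjusted p = 0.0118). Fgf15 without that library was at -0.92 (adjusted p = 0.000688). In that fit 3 of the 4 tested ligands, Fgf15, Fgf17 and Fgf18, were called lower, beside 17.1% of all genes. The filter was set on all 9 libraries, and neither Fgf15 nor Fgf18 reached an RPKM of 1 in the F266A libraries left. Nothing is drawn from their calls or from this count. Fgf1, with a mean of 0.517 RPKM, did not pass the filter. Of the remaining receptors, Fgfrl1 (mean 0.880 RPKM) differed by 0.21 (adjusted p = 0.209), and Fgfr4 (mean 0.524) was not tested.

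**Figure D4:**
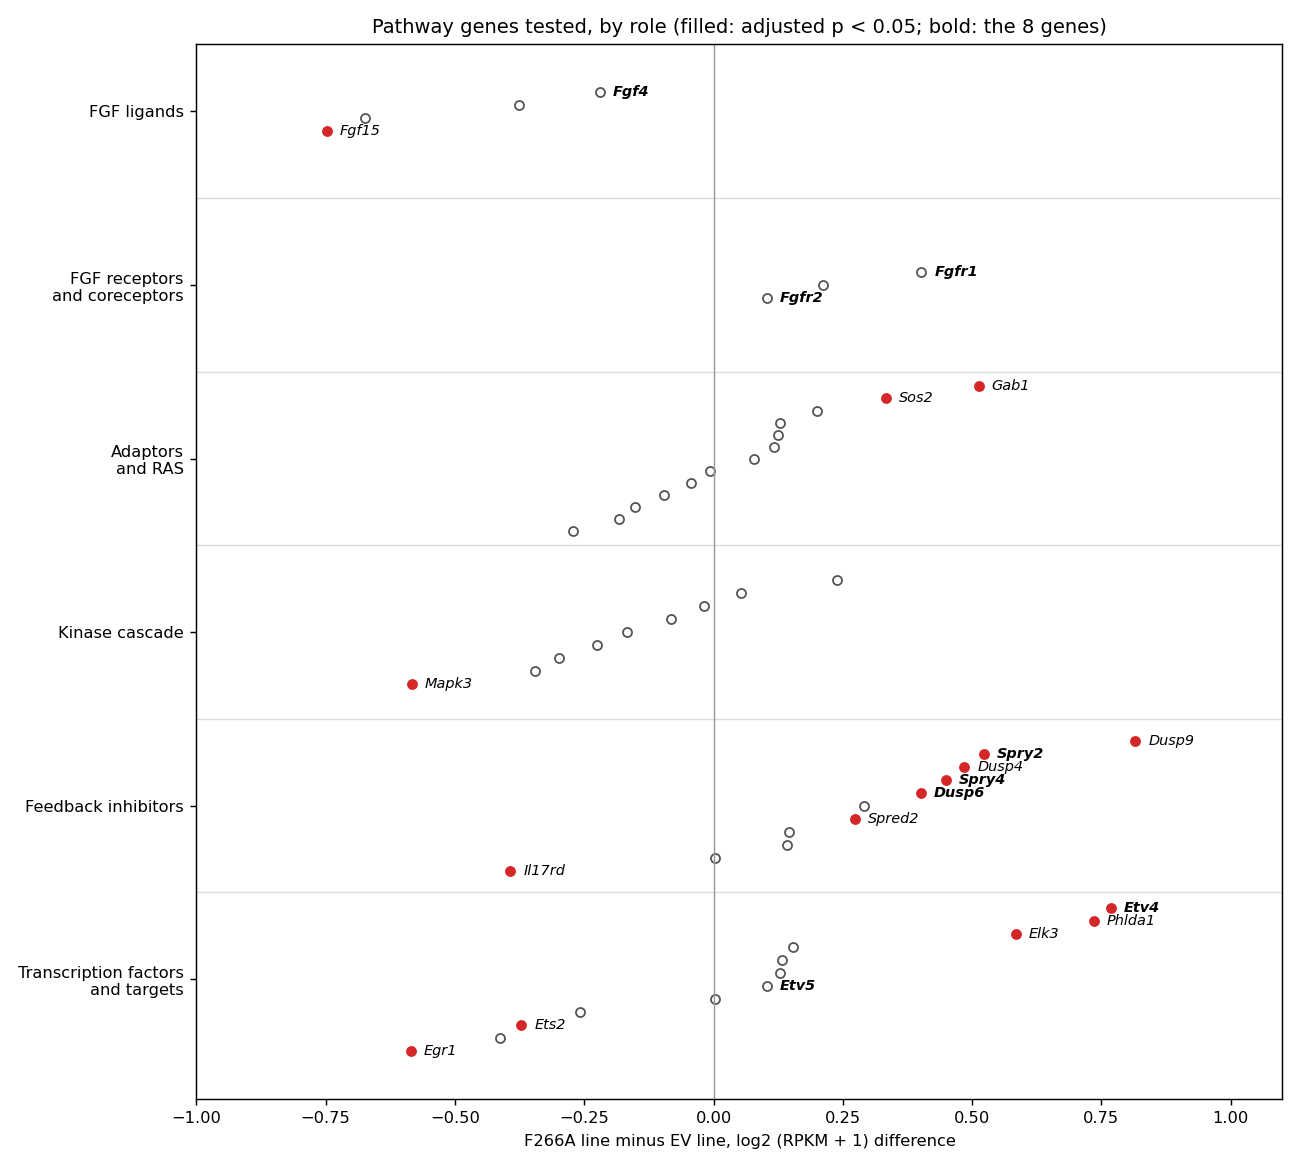
F266A minus EV difference on the log2 (RPKM + 1) scale (horizontal axis) of every tested pathway gene, in rows by role; each point is 1 gene, filled where the limma adjusted p is under 0.05, and the 8 genes are in bold. Among the 11 feedback inhibitors 6 filled points lie above 0 and 1 below, and all 4 ligands lie below 0. Of the filled points, Dusp4, Elk3 and Phlda1 passed the filter only with the help of F266A libraries, and Fgf15 and Ets2 only with the help of EV and WT libraries.

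WDR5 pulldown was measured as the enrichment score of the study, which is here the difference in log2 (RPKM + 1) between an IP and the input of its line. Scores were above 0 for most genes in all IPs, including EV, which has no tag: the median over the 9787 genes was 0.26 to 0.39, and 85.5% to 96.3% of them were above 0. Etv5 had the highest WT scores of the 8, 0.82 and 0.54, compared with 0.36 and 0.31 in EV and 0.49 and 0.47 in F266A. Fgfr1 scored 0.50 and 0.48 in WT, 0.29 and 0.33 in EV, and -0.42 and 0.46 in F266A. Etv4 scored 0.38 and 0.25 in WT, 0.32 and 0.58 in EV, and 0.30 and 0.63 in F266A, so its lower WT score was the lowest of the 6 and the other lay between the control scores. Spry4 scored 0.48 and 0.34 in WT, 0.40 and 0.43 in EV, and 0.18 and 0.45 in F266A. Its higher WT score was above all 4 control scores and its lower one was below both of EV. Spry2 was at 0.38 and 0.23 in WT, above EV (0.11 and 0.02) but with its lower score below both of F266A (0.49 and 0.25). Fgf4 was near 0 in WT (-0.08 and 0.16), below 0 in EV (-0.12 and -0.14) and highest in F266A (0.29 and 0.34), whose input was the lowest of the 3.

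The selection rule of the study asks that the lower WT score be above 0 and above all 4 scores of EV and F266A. Etv5 and Fgfr1 met it, 2 of the 8, as did 1157 of 24132 symbols (4.79%). Their margins over the highest control score were 0.05 and 0.02, where the 2 WT scores of Etv5 lay 0.27 apart and those of Fgfr1 0.0156 apart. Dusp6 had a margin of -0.0029 and met it with a pseudocount of 0.1. For Dusp6 and Fgfr2 the 1 control score above the lower WT score was that of F266A IP 1. Without that library, which was left out of the rule after seeing the data, 4 of the 8 met it, Fgfr1, Fgfr2, Dusp6 and Etv5, as did 1977 symbols (8.19%). Leaving out any other control IP left Etv5 and Fgfr1 as the members that met it. Without WT IP 2, 4 of the 8 met it as well, here Fgfr1, Spry4, Dusp6 and Etv5, beside 13.4% of all symbols, and without WT IP 1 Fgfr1 and Etv5 did, beside 13.9%. Both Etv5 and Fgfr1 met it when scores were centred on their median, and neither met it when the mean of the 3 inputs replaced the input of each line. Etv5 was at 9.83 RPKM in the WT input and 11.2 in the other inputs, and its WT IPs (18.1 and 14.8) enclosed its F266A IPs (16.2 and 16.0). Etv5 is also among the genes the study listed from these libraries, so its place here is not independent of that choice.

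Tested against the spread between IPs, no difference in enrichment passed. For WT against F266A, WT against EV, and F266A against EV, limma called 0 of the 8 genes and 0 of 9787 (0.0% in each), while 259, 173 and 243 genes had an unadjusted p under 0.05. The WT minus EV estimate for Etv5 was 0.34, with a 95% interval of -0.18 to 0.86, and the WT minus F266A estimate 0.20 (-0.32 to 0.72). With 1 IP left out, the first ran from 0.21 to 0.48 and the second from 0.06 to 0.33. For Fgfr1 the WT minus F266A estimate was 0.47 (-0.50 to 1.44). Without F266A IP 1 it was 0.03, and with any 1 IP left out it ran from 0.03 to 0.91. For Fgfr2 the WT minus EV estimate was 0.42 (-0.44 to 1.29), and 0.28 to 0.57 with 1 IP left out.

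**Figure D5:**
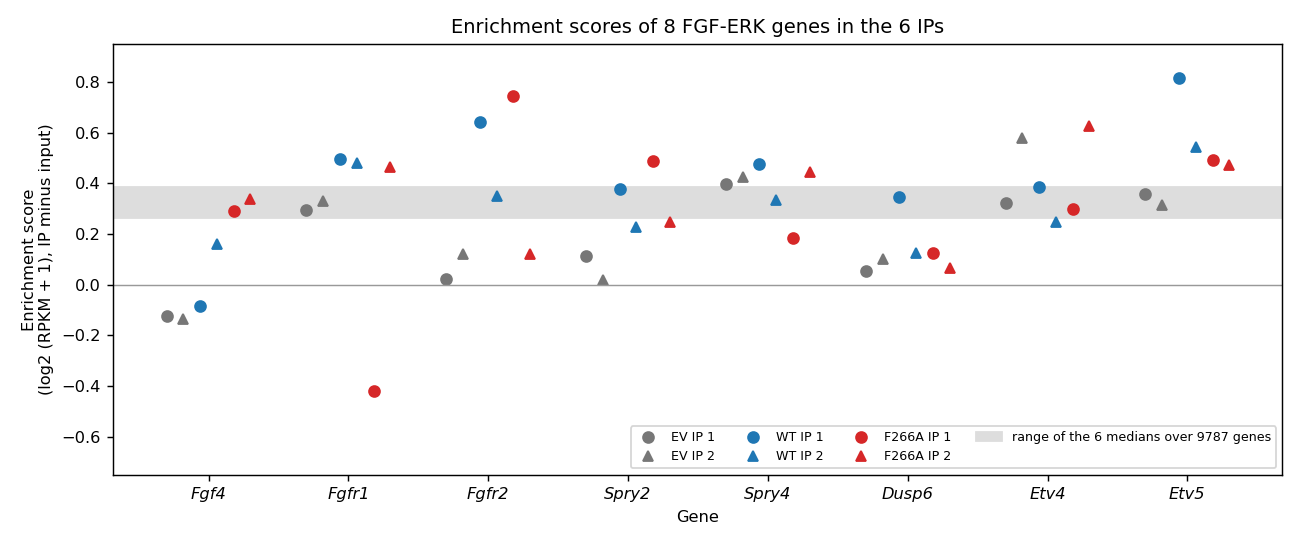
Enrichment score of each of the 8 genes (vertical axis, log2 (RPKM + 1) of the IP minus that of the input) in the 6 IPs; the grey band spans the 6 medians over 9787 genes, 0.26 to 0.39. Both WT scores exceed all 4 control scores for Etv5 and Fgfr1, by 0.05 and 0.02, and the Fgfr1 score of F266A IP 1 is the lowest at -0.42.

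Over all lines 4 of the 8 genes were called higher in IPs than in inputs. Etv5 (0.50 ± 0.09, limma adjusted p = 0.00147), Etv4 (0.41 ± 0.09, adjusted p = 0.00486), Spry4 (0.38 ± 0.08, adjusted p = 0.00309) and Spry2 (0.25 ± 0.09, adjusted p = 0.0332) were called higher in IPs, as were 63.8% of all genes, whose median difference was 0.30. The Spry2 call was lost in 4 of the 9 refits that left out 1 library, with adjusted p up to 0.187 without the F266A input. Without F266A IP 1 Fgfr1 was called too, at 0.42 (adjusted p = 0.000901) from 0.27 (adjusted p = 0.158), which made 5 of 8, against 66.8% of all genes. Without F266A IP 2 it was Fgfr2 that was called too (adjusted p = 0.0253, from 0.0683), again 5 of 8, against 5918 of 9787 genes. The share of reads on genes differed in the same direction. None of the 8 was called higher once each library was centred on its own median, or with upper quartile or quantile scaling. With centring Spry2 turned to -0.06 (adjusted p = 0.624), and under quantile normalization Spry4 turned to -0.02 (adjusted p = 0.919). Fgf4 was 0.07 higher in IPs as deposited (adjusted p = 0.485) and -0.36 under quantile normalization (adjusted p = 0.0493).

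Correlations across the 9 libraries are given as a description, since the libraries share lines, fractions and depth. Etv4 and the 3 feedback inhibitors are grouped here for their common difference between lines, which by itself relates them over these libraries. Pearson's r of log2 (RPKM + 1) for their pairs ran from 0.785 (Etv4 and Spry2) to 0.952 (Etv4 and Spry4), and it was 0.54 between Etv4 and Etv5. Fgfr1 reached 0.802 with Spry4 and 0.708 with Etv4. Fgf4 was negatively related to Dusp6 (-0.65) and Etv4 (-0.51). Etv5 was closer to Fgfr2 (0.76) and Spry4 (0.73) than to Etv4. Among tested genes with a mean RPKM of at least 1, those nearest to Spry4 were Bmp4 (0.990), Klhl22 (0.985) and Gab1 (0.983). The median r of Spry4 over all genes was 0.392. Those nearest to Etv4 were Ap1g1 (0.976), Papd5 (0.975) and Nqo1 (0.972), and to Dusp6 F2r (0.976), AI314180 (0.974) and Ddx4 (0.972). For Spry2 they were Nefh (0.981), Tubg1 (0.979) and Trib1 (0.974), and for Fgfr1 Cdh1 (0.968), Slc27a1 (0.965) and Gse1 (0.965). Fgf4 was most like Scaper (0.957), Rnh1 (0.949) and Ip6k1 (0.948), and Etv5 most like Actr1a (0.989) and the histone genes Hist1h2bk (0.987) and Hist1h2bq.2 (0.985), with a median r of 0.636 over all genes.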

How the data were processed

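Reads were mapped to mm9 with TopHat 1.1.3, and the deposited values are RPKM per RefSeq gene symbol that the authors calculated with their own script. RPKM are not counts, so no count test was run. Differences were tested with limma 3.58.1 (R 4.3.3) on the log2 scale after adding 1 to each RPKM. The 9787 genes that reached an RPKM of 1 in 2 or more of the 9 libraries entered, by lmFit and eBayes with a mean-variance trend, with Benjamini-Hochberg adjustment over all of them and an adjusted p under 0.05 as threshold. Line differences came from an additive fit of line and fraction over input and IPs. Enrichment differences came from a fit with 1 mean per line and fraction. This log scale understates changes of low genes.

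Read numbers were estimated from the lowest RPKM steps and GENCODE M1 exon lengths (mm9), which also gave positions, and cover counting error only. Transcripts spanning over 1000000 bases were left out as read-through models. Promoters came from RefSeq (GRCm38.p6). The fits were tested on simulated data, and figures were drawn with Python 3.11.15 and matplotlib 3.10.9.

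The 8 genes and all gene lists were chosen with earlier results of these data known. Named besides them are pathway genes called in a comparison, up to 6 by smallest adjusted p, and FGF ligands and receptors with a mean RPKM of at least 0.5. The 3 genes most like each of the 8 other than Fgfr2 (mean RPKM of at least 1) by Pearson's r are named as well. Alternatives were a pseudocount of 0.1, other filters and scalings, IPs alone, the mean of the inputs, eBayes without the trend, a block for the replicate number and each library left out.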

Additional observations from a re-analysis of the deposited data

How the results depend on the processing

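Etv4 and Spry2 were called higher in F266A than in EV in every alternative that tested them, with IPs alone and each library left out included. The direction of Spry4 and Dusp6 held in all of them. With a pseudocount of 0.1 the Dusp6 difference was 0.61 for F266A against EV, beside 0.57 for Spry2 and 0.49 for Spry4. For WT against F266A it was then -0.52. Genes called numbered 6297 for IPs against inputs (2661 at a mean RPKM of at least 5, 616 with quantile normalization, 880 with median centring, 658 with upper quartile scaling, and 3835 to 6595 with a library left out). For F266A against EV the 1635 became 800 at a mean RPKM of at least 5, 445 with IPs alone, and 804 to 2531 with a library left out. For WT against EV the 17 became 10 at a mean RPKM of at least 5, 27 with quantile normalization, 0 with IPs alone, and 0 to 61 with a library left out. For WT against F266A the 976 became 505, 114 with IPs alone, and 293 to 1800. Enrichment differences, with 0 genes called in each, became 33 for WT against F266A, 45 for WT against EV and 22 for F266A against EV with no filter on low RPKM, and 88 for the last with a pseudocount of 0.1. With an IP left out they were 0 to 2, 0 to 0 and 0 to 0. The enrichment rule returned 1157 symbols, 723 with centred scores, 3238 to 3354 with 1 WT IP and, added after seeing the data, 1426 to 1977 with 1 control IP left out. The cause of these shifts was not tested, beyond the smaller number of genes at the stricter filter.

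For IPs against inputs, the sign turned with quantile normalization, median centring and upper quartile scaling for Fgf4 (-0.36, -0.24, -0.32), Fgfr1 (-0.0775, -0.0351, -0.0754), Spry2 (-0.16, -0.0649, -0.14) and Dusp6 (-0.0921, -0.17, -0.12), and with the first and the last for Spry4 (-0.0201, -0.0057). Between WT and F266A it turned for Fgfr2 with quantile normalization (-0.0724) and for Etv5 with IPs alone (0.0196), and between WT and EV for Etv4 with IPs alone (-0.0063). With a library left out, values spanned 0 for Fgfr2 in F266A against EV (-0.0853 to 0.26), for Fgfr2 (-0.11 to 0.23) and Etv5 (-0.15 to 0.0441) in WT against F266A, for Fgf4 (-0.0178 to 0.14), Dusp6 (-0.0191 to 0.11), Etv4 (-0.024 to 0.12) and Etv5 (-0.0507 to 0.15) in WT against EV, and for Fgf4 in IPs against inputs (-0.0454 to 0.18). None of these was called except Fgf4 with quantile normalization (limma adjusted p = 0.0493).

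IPs of the same replicate number deviated together with r = 0.26, 0.11 and 0.012 for the 3 pairs of lines, so the numbers were not taken to pair the samples. With the replicate number as a block, 5739, 1908, 17 and 1167 genes were called for IPs against inputs, F266A against EV, WT against EV and WT against F266A. Among the 8 genes the block changed only Fgfr2 in IPs against inputs (0.47, adjusted p = 0.0251). Inputs had no replicate, and Dusp6 and Fgfr2 rested on the fewest reads.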
